A study of Mus musculus with 24 samples.

Results

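Olfm4 encodes olfactomedin 4, and it is 1 gene of the 36528 counted in every library of a study of mouse small-intestinal organoids. It was singled out for its values under the peptide dFz7-21, which moved little at 6 h and fell about 20-fold at 24 h. Those values chose the gene, so its dFz7-21 comparisons are given as a description without a test, and tests are given only for comparisons that the choice did not use. Organoids of this kind are self-organising epithelial cultures that hold crypt stem cells together with their differentiating descendants. Polyadenylated RNA was sequenced from 24 samples in 6 groups of 4: DMSO vehicle, dFz7-21 or Fz7-21S, each for 6 h or 24 h. By the design text, dFz7-21 blocks Frizzled 7, one of the receptors to which Wnt ligands bind. The labels give all groups as primary small-intestinal organoids, and they give no dose, mouse strain or culture medium and nothing on Fz7-21S beyond its name. They do not say whether replicates are separate cultures or mice, so the p-values rest on the spread among these samples only, and that spread may be technical.

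Olfactomedin 4 is a secreted glycoprotein with an olfactomedin domain. In the intestine its transcript marks the columnar stem cells at the crypt base, which depend on Wnt signals and on Notch signals from neighbouring cells. Olfm4 is known as a target of the Notch pathway in crypts and as a gene that NF-kB factors can activate, and it is also made by neutrophils. RefSeq places the mouse gene on the plus strand of chromosome 14, from 80000302 to 80023141 in GRCm38, and reads were summed over the gene model as a whole.

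Library totals were 20446610 to 33102993 counts, and 15429 genes had enough reads to be tested. Levels are TMM-normalised CPM, which are counts per 1000000 counted reads. A count of 3, used as the floor for a gene without reads, corresponds to 0.0891 to 0.144 CPM, and it covers counting error only. Epithelial markers were abundant in all 24 libraries, with summed levels of 11200 to 20596 CPM. Mesenchymal transcripts were present in DMSO 6 h replicates 1 and 2 and in dFz7-21 24 h replicate 3, where the 11 markers summed to as much as 945 CPM in the last. DMSO 24 h replicate 2 and Fz7-21S 24 h replicate 4 had the fewest genes with reads, 16897 and 17787.

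The sequence in front of the gene is shown because its level is the result described here, and that of Pcdh8 because this protocadherin gene, 229 kb away, fell early where Olfm4 fell late. Both are RefSeq promoters on GRCm38.p6, read 5′ to 3′ on the strand of the gene. For Olfm4 (plus strand, chr14:80000052-80000280) the capitals mark overlapping matches to the NF-kB consensus on the minus strand, at positions -52 to -42 from the RefSeq start. For Pcdh8 (minus strand, chr14:79771313-79771562) the capitals mark a TATA box, TATAAA, at positions -30 to -25. Only that exact string was searched, so the similar tataag near the printed end of the Olfm4 sequence is not marked.
Olfm4: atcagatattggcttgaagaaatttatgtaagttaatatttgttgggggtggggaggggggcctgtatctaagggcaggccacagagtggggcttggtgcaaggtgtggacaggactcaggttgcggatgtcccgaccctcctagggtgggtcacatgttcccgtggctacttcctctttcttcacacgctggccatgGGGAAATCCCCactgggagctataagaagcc
Pcdh8: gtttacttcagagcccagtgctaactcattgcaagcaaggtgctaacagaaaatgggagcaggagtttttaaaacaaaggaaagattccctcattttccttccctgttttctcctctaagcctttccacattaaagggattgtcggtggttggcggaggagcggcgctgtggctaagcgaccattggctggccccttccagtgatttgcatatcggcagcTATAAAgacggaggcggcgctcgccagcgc
GENCODE starts an Olfm4 transcript upstream of the RefSeq start, at position -51, so the last 30 bases printed lie in an annotated exon. Both strands were searched in windows of 250 bases before to 50 bases after the start. The NF-kB consensus was found in 5.81% of 32817 such promoters and in none of the 14 promoters available for other genes that fell strongly at 24 h. Of these 14, 2 held GTGGGAA (Kif26b and Sp5), 5 its core TGGGAA, 2 CTTTGAT (Sp5 and Tnfrsf19) and 2 TATAAA (Pcdh8 and Pla2g4a). The motif GTGGGAA, bound by the Notch effector RBPJ, was in neither promoter shown and in 6.39% of all. Its core TGGGAA occurs in Olfm4 at positions -12 to -7, and 25.6% of all promoters hold it. The TCF motif CTTTGAT was in neither promoter and in 3.73% of all, and TATAAA was in 13.6%. These matches describe letters in a window and not binding.

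Olfm4 was abundant in all 20 libraries outside the dFz7-21 24 h group and low in the 4 libraries of that group. In DMSO at 6 h it was counted at 1606, 1506, 1440 and 1451 CPM (1501 ± 75.7, SD, n = 4). In Fz7-21S at 6 h it was counted at 1375, 1396, 1452 and 1324 CPM (1387 ± 52.9). In dFz7-21 at 6 h it was counted at 1090, 1223, 1304 and 1257 CPM (1218 ± 91.7). Every dFz7-21 library at 6 h lay below every DMSO and every Fz7-21S library of that time, by a narrow margin. At 24 h the DMSO libraries held 1145, 1222, 1642 and 1457 CPM (1367 ± 226), the widest spread in CPM of the 6 groups. The Fz7-21S libraries at 24 h held 1375, 1271, 1284 and 1167 CPM (1274 ± 85.0). The dFz7-21 libraries at 24 h held 87.2, 45.1, 63.1 and 76.2 CPM (67.9 ± 18.1), far below all others. Without replicate 3, which held the mesenchymal transcripts, their mean was 69.5 CPM.

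**Figure D1:**
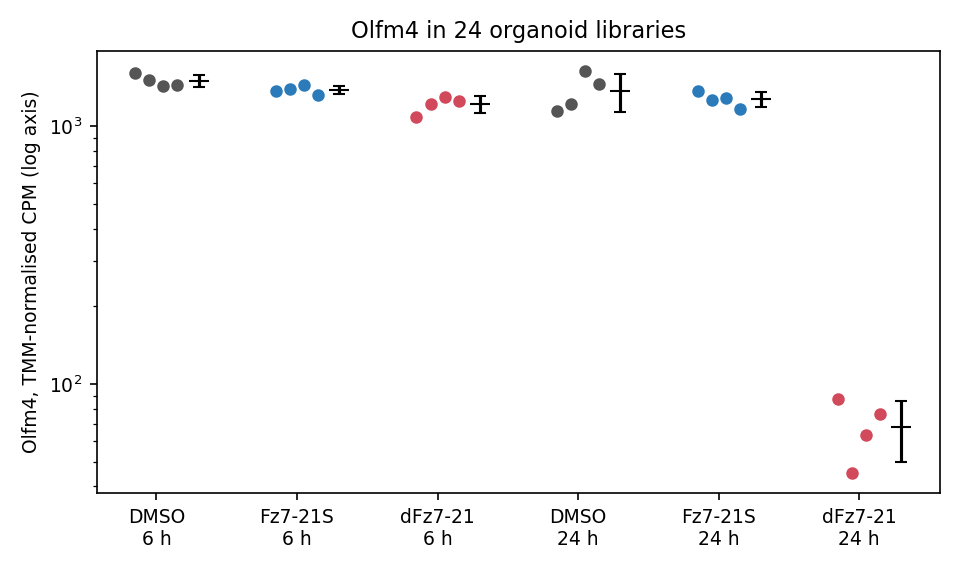
Olfm4 level in TMM-normalised CPM (log axis) in each of the 24 libraries by treatment and time; points are libraries and the bar beside them is the mean ± SD (n = 4). The 20 libraries of the first 5 groups lie between 1090 and 1642 CPM, and the dFz7-21 24 h libraries lie between 45.1 and 87.2 CPM.

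Ordered by mean, the groups ran from DMSO 6 h through Fz7-21S 6 h, DMSO 24 h, Fz7-21S 24 h and dFz7-21 6 h to dFz7-21 24 h. Each of the first 5 groups overlapped its neighbour in that order, and only the last step separated 2 groups completely. The coefficient of variation was 3.82% to 7.53% in the 6 h groups and in Fz7-21S at 24 h, 16.6% in DMSO at 24 h and 26.7% in dFz7-21 at 24 h.

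Fz7-21S left Olfm4 near its DMSO level. At 6 h the log2 difference from DMSO was -0.11 ± 0.13 (SE; 95% interval -0.38 to 0.15; edgeR quasi-likelihood adjusted p = 0.999), with overlapping groups. At 24 h it was -0.10 ± 0.13 (-0.36 to 0.16; edgeR adjusted p = 0.634), again with overlapping groups. Two-sided exact permutation tests of the log2 CPM gave p = 0.0857 and p = 0.514, where 0.0286 is the smallest p that 4 against 4 libraries allow. The effect of Fz7-21S did not change detectably between the times (interaction 0.01 ± 0.18 on the log2 scale, edgeR adjusted p = 0.980). These intervals leave room for a fall of up to 0.38 on the log2 scale. At 6 h 0.00648% of all genes tested were called between these treatments, which is the gene Cyp1a1 (named after its value was seen), and at 24 h 0.259% were called. At an unadjusted p below 0.05 there were 614 and 3673 genes.

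Culture time alone also left Olfm4 nearly level. In DMSO the log2 difference of 24 h from 6 h was -0.14 ± 0.13 (95% interval -0.40 to 0.13; edgeR adjusted p = 0.391; exact permutation p = 0.343), while 52.2% of all genes were called in that comparison. In Fz7-21S it was -0.12 ± 0.13 (-0.39 to 0.14; edgeR adjusted p = 0.424; exact permutation p = 0.0571).

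Under dFz7-21 the level fell late. At 6 h Olfm4 stood at 81.2% of its DMSO level, a log2 difference of -0.30 ± 0.13, and it differed from Fz7-21S by -0.19 ± 0.13. At 24 h it stood at 4.97% of its DMSO level, a difference of -4.33 ± 0.15, or 20.1-fold. Against Fz7-21S the difference at 24 h was -4.23 ± 0.15 (18.8-fold), and against dFz7-21 at 6 h it was -4.17 ± 0.15 (18.0-fold). The comparisons with DMSO and with Fz7-21S share the dFz7-21 libraries. In bulk RNA, fewer cells that make Olfm4 and less Olfm4 RNA per cell cannot be told apart.

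On the scale of the deposited RPKM, which accounts for gene length, Olfm4 was among the abundant transcripts of these organoids. Its mean was 497 in DMSO, 458 in Fz7-21S and 404 in dFz7-21 at 6 h. At 24 h it was 449, 416 and 22.6. Olfm4 ranked 73rd to 209th of all genes by RPKM in the 20 other libraries and 3272nd to 5349th in the dFz7-21 24 h libraries. The difference of 427 RPKM from DMSO at 24 h was the 6th largest loss among all genes, just above the Paneth cell lysozyme gene Lyz1 with 328. In reads, the gene drew 24878 to 47769 counts in each of the 20 libraries and 1036 to 1809 in the others, so counting error was small beside the spread between libraries.

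The late timing for which Olfm4 was chosen can be set beside that of other genes that fell strongly. Among genes averaging 2 or more on the log2 CPM scale, 21 were called lower with dFz7-21 than DMSO at 24 h by at least 4-fold, and 35.9% of all genes tested were called in that comparison. These members were selected on their 24 h change, so their 24 h values are a description. Of the 21, 19 were also called lower at 6 h, where 5.0% of all genes were called lower. Those outside the 19 were Kif26b, a kinesin-family gene that was not called, and Olfm4, whose dFz7-21 values are described without a test. The call of Mex3a at 6 h was lost without any one of DMSO 6 h replicates 1, 2 and 4 and dFz7-21 6 h replicates 1 and 4 (adjusted p from 0.0577 to 0.111). The share of the 24 h log2 change already present at 6 h was 6.94% for Olfm4, the lowest of the 21, against a median of 35.5%. Olfm4 had this lowest rank in all 32 settings tried, with shares of 5.75% to 7.95%. The choice of Olfm4 for this pattern largely fixed that rank, so it is a description and no support.

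After Olfm4 came Kif26b with 10.2%, Bmp6, a BMP ligand, with 20.3%, Mex3a, an RNA-binding protein of crypt cells, with 21.3%, and the translational regulator Msi1 with 23.7%. At the other end stood Pcdh8 with 81.4%, Ptpro, a receptor tyrosine phosphatase, with 78.6%, Sp5, a transcription factor induced by Wnt, with 63.1%, Tnfrsf19, a stem cell surface receptor, with 61.4%, and Smoc2, a matricellular protein of stem cells, with 57.0%. Lgr5, the R-spondin receptor that marks the same stem cells, stood between them with 44.0%. Olfm4 also had the highest RPKM of the 21 in DMSO at 24 h, where Smoc2 came next with 201. With dFz7-21 at 24 h that order was inverted, with 47.2 RPKM for Smoc2 and 22.6 for Olfm4.

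**Figure D2:**
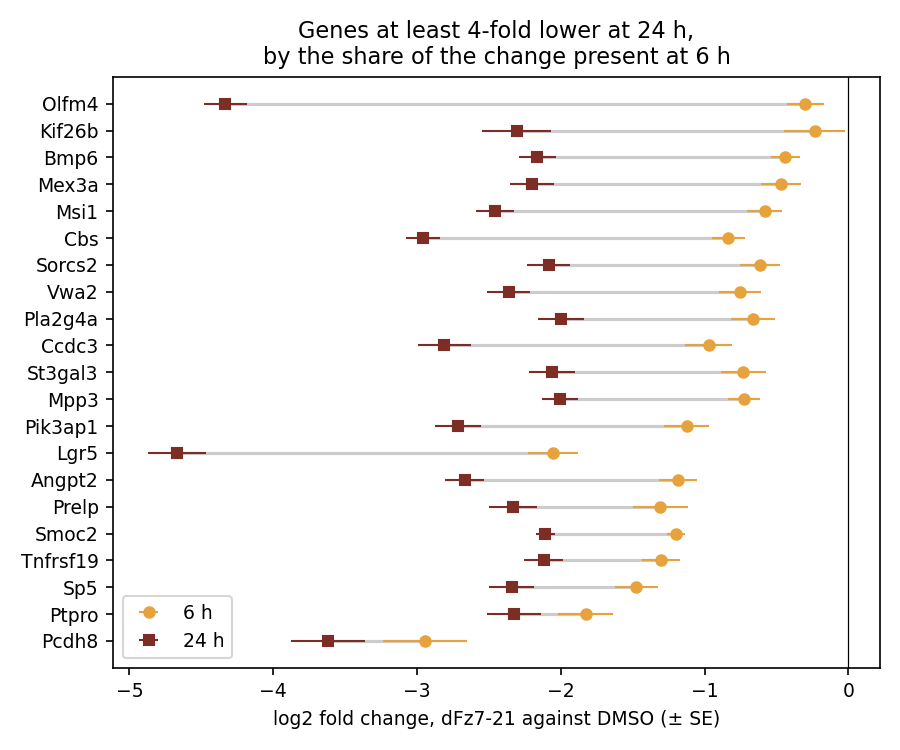
Log2 fold change of dFz7-21 against DMSO (± SE) at 6 h (circles) and 24 h (squares) for the 21 genes lower by at least 4-fold at 24 h, ordered by the share of the change present at 6 h. Olfm4, at the top, spans from -0.30 to -4.33, while Pcdh8, at the bottom, spans from -2.95 to -3.62.

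Many other genes of the crypt stem cell were already lower at 6 h. Of 24 listed, Olfm4 not among them, 19 were called lower at 6 h, where 5.0% of all genes were called lower. The median log2 change of the 24 was -0.57, against 0.01 over all genes. With 1 library left out, 16 to 21 were called lower at 6 h. The calls of Axin2 and Mex3a at 6 h were lost without the 3 libraries with mesenchymal transcripts (edgeR adjusted p = 0.206 and 0.239). At 24 h all 24 were called lower (median -1.47, against -0.01), with 17.7% of all genes called lower. Lgr5 fell from 44.4 ± 4.84 CPM in DMSO to 10.7 ± 0.602 CPM at 6 h (log2 -2.05 ± 0.18, edgeR adjusted p = 3.65e-08). By 24 h Lgr5 fell from 97.0 ± 19.3 to 3.82 ± 1.24 CPM (-4.67 ± 0.20, adjusted p = 5.36e-14), a change as deep as that of Olfm4. At both times every dFz7-21 library lay below every DMSO library. Smoc2 fell from 158 ± 6.07 to 68.7 ± 2.92 CPM at 6 h (-1.20 ± 0.06) and from 584 ± 44.4 to 135 ± 13.4 CPM at 24 h (-2.11 ± 0.06). Ascl2, a transcription factor of stem cell identity, fell from 32.4 ± 2.64 to 13.7 ± 2.51 CPM at 6 h (-1.25 ± 0.17) and from 29.4 ± 2.86 to 10.3 ± 3.12 CPM at 24 h (-1.51 ± 0.18). Its change hardly grew between the times. Rgmb, a BMP co-receptor, and Lrig1, an inhibitor of EGF receptor family signalling, fell by 0.95 and 0.77 on the log2 scale at 6 h and by 1.78 and 1.03 at 24 h.

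In DMSO alone, several of these genes rose with time. Of the 24 stem cell genes, 12 were higher and 4 lower at 24 h than at 6 h in DMSO, with 27.3% of all genes called higher and 24.9% lower. Smoc2 rose by 1.88 ± 0.06 and Lgr5 by 1.13 ± 0.16 on the log2 scale (edgeR adjusted p = 1.32e-16 and 2.70e-06). The difference for Ascl2 was -0.14 ± 0.16 and did not pass the test, and the value for Olfm4 was likewise near 0. With dFz7-21 at 24 h, Smoc2 thus stood near its DMSO level of 6 h, whereas Olfm4 stood at 4.52% of that level.

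**Figure D3:**
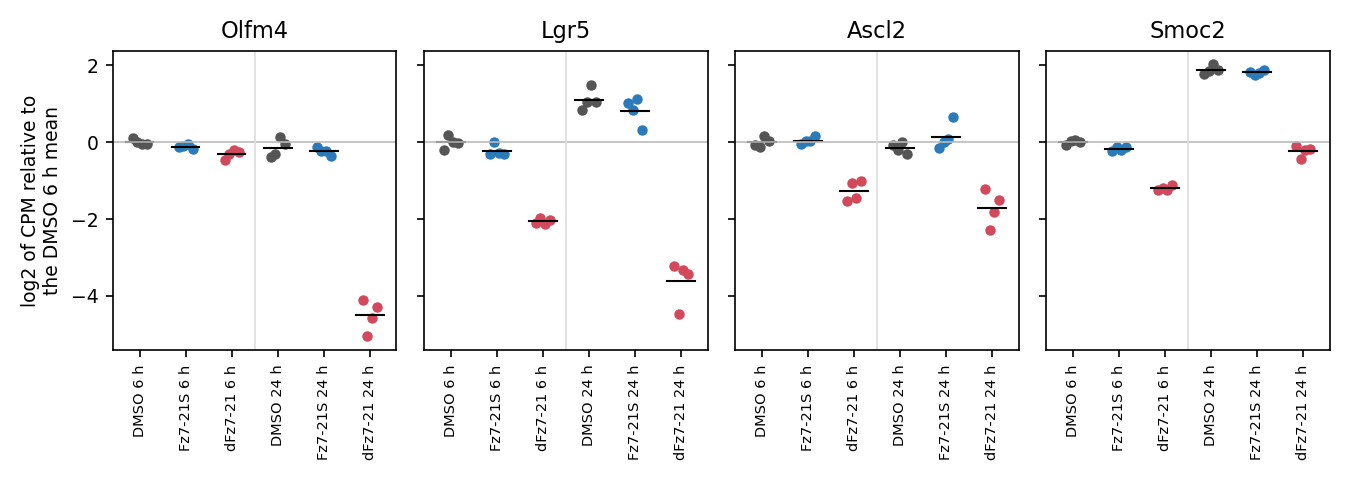
Log2 of CPM relative to the DMSO 6 h mean of each gene for Olfm4, Lgr5, Ascl2 and Smoc2 in all 24 libraries; points are libraries and black bars are group means. Lgr5, Ascl2 and Smoc2 lie below DMSO of the same time with dFz7-21 at both times, while Olfm4 drops at 24 h and Smoc2 rises with time in all treatments.

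Of 20 listed Wnt target genes, 13 were called lower at 6 h (8 without the 3 libraries with mesenchymal transcripts) and 19 at 24 h, with medians of -0.33 and -1.15 and with 5.0% and 17.7% of all genes called lower. The other member, Notum, which encodes a secreted Wnt inhibitor, was called higher at 24 h (0.99 ± 0.38, adjusted p = 0.0467) at about 1 CPM. Its call was lost without any one of DMSO 6 h replicate 1, Fz7-21S 6 h replicates 1, 2 and 4, dFz7-21 6 h replicates 2 and 3, DMSO 24 h replicates 1, 2 and 3 and dFz7-21 24 h replicates 1 and 2 (adjusted p from 0.0516 to 0.132). Axin2, a feedback inhibitor of the Wnt pathway, fell from 271 ± 19.3 to 93.8 ± 16.2 CPM at 24 h (-1.53 ± 0.11, edgeR adjusted p = 2.06e-10). Ephb3, a receptor that positions cells along the crypt, fell by 0.56 ± 0.08 at 6 h and by 1.54 ± 0.08 at 24 h on the log2 scale. Some genes, such as Lgr5, stand in both lists.

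Genes of the Notch pathway, through which Olfm4 is known to be switched on, changed in both directions. Of 27 listed components (ligands, receptors, proteases, modifiers and nuclear factors), 2 were called lower at 6 h, and at 24 h 8 were called lower and 6 higher (median -0.09). Over all genes 5.0% were called lower at 6 h, and 17.7% were called lower and 18.2% higher at 24 h. The largest rise, that of the ligand gene Dlk1 at 24 h (4.37 ± 1.09), rested on dFz7-21 24 h replicate 3, the library richest in mesenchymal transcripts, and without it was 0.87 (adjusted p = 0.333). The 6 h count was 1 without any one of DMSO 6 h replicates 2 and 3 and dFz7-21 6 h replicates 1 and 3. It was 4 without Fz7-21S 24 h replicate 4 or dFz7-21 24 h replicate 3. The 6 that rose at 24 h were 3 without the libraries with mesenchymal transcripts. Among modifiers, Lfng, a glycosyltransferase that alters how Notch receptors respond to ligands, fell at both times. It stood at 17.7 ± 1.52 CPM against 28.3 ± 0.775 in DMSO at 6 h (log2 -0.67 ± 0.12, edgeR adjusted p = 0.00025). By 24 h Lfng stood at 14.6 ± 3.19 against 42.9 ± 4.08 (-1.55 ± 0.12, adjusted p = 3.30e-10), with no overlap between the groups. Of the ligands, Dll1 fell from 38.9 ± 5.59 to 21.5 ± 1.86 CPM at 24 h (-0.86 ± 0.09) and Dll4 from 16.0 ± 1.49 to 10.4 ± 0.642 CPM (-0.61 ± 0.09).

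Of 15 listed Notch targets and genes that Notch represses, 11 were tested. The counts and the median pool both kinds of gene, which were not counted apart. At 6 h 2 were called lower, Neurog3 and Hes6 (5.0% of all genes), or 1 without any one of DMSO 6 h replicates 1, 3 and 4 and dFz7-21 6 h replicates 1, 2 and 3. Both calls were lost without the libraries with mesenchymal transcripts. At 24 h 8 were called lower (median -0.45; 17.7% of all genes), or 5 without DMSO 24 h replicate 2 or without dFz7-21 24 h replicate 2. Hes1, the repressor that Notch switches on in most crypt cells, was counted at 91.3, 103, 94.0 and 93.6 CPM in DMSO at 24 h and at 71.1, 68.7, 69.0 and 70.1 CPM with dFz7-21. The groups did not overlap, and the change was -0.45 ± 0.08 on the log2 scale (edgeR adjusted p = 0.000102). At 6 h the difference for Hes1 was -0.12 ± 0.08 and did not pass the test. Nrarp, a feedback inhibitor of Notch, differed by -0.10 ± 0.08 at 24 h (adjusted p = 0.359). Neurog3, the endocrine progenitor factor that Notch represses, fell from 18.7 ± 1.17 to 14.3 ± 0.997 CPM at 6 h (adjusted p = 0.00551, or 0.0602 without the libraries with mesenchymal transcripts) and from 28.3 ± 3.01 to 7.11 ± 0.982 CPM at 24 h.

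Some genes of the NF-kB pathway were higher with dFz7-21. Of 24 listed, 20 were tested and 5 were called higher at 6 h (median 0.30; 6.05% of all genes were called higher). At 24 h 7 were called higher (18.2% of all genes), or 4 without the libraries with mesenchymal transcripts. The 2 called lower at 24 h (17.7% of all genes) were Tnf (-0.49 ± 0.18), a cytokine gene, and the subunit gene Nfkb1 (-0.19 ± 0.06). Both calls were lost without the libraries with mesenchymal transcripts. That of Tnf was lost without any one of DMSO 24 h replicates 1 and 4 and dFz7-21 24 h replicates 1, 3 and 4 (adjusted p from 0.0574 to 0.173). That of Nfkb1 was lost without any one of DMSO 24 h replicates 3 and 4 and dFz7-21 24 h replicates 2, 3 and 4 (adjusted p from 0.0543 to 0.112). Nfkbia, the inhibitor that NF-kB induces against itself, rose from 86.5 ± 3.65 to 115 ± 5.50 CPM at 6 h (log2 0.41 ± 0.06, edgeR adjusted p = 3.13e-05) and from 47.0 ± 1.93 to 56.8 ± 2.40 CPM at 24 h (0.27 ± 0.06). Bcl3, a nuclear cofactor of NF-kB, rose by 0.64 ± 0.08 and 0.50 ± 0.09. Nfkb2, a precursor of an NF-kB subunit, and Tnfaip3, an enzyme that limits NF-kB activation, rose at 6 h by 0.36 ± 0.06 and 0.43 ± 0.08.

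The genes whose level followed that of Olfm4 most closely over the 24 libraries were dominated by the same fall at 24 h. The 10 highest Pearson correlations of log2 CPM, among 10910 genes, were those of Cnn3 (r = 0.978), Cd24a (0.973), Sema7a (0.963), Igfbp4 (0.962), Marcksl1 (0.962), Lyz1 (0.961), Axin2 (0.957), Adora1 (0.955), Kif26b (0.949) and Mcc (0.948). For Olfm4 the dFz7-21 24 h libraries stood apart from the other 20. Over these 20 the same 10 correlations ranged from -0.12 (Marcksl1) to 0.68 (Axin2). Their falls at 24 h were smaller than that of Olfm4. Cnn3, an actin-binding calponin, fell by 0.96 ± 0.07 and Cd24a, a surface glycoprotein high in Paneth cells, by 0.86 ± 0.06 on the log2 scale. Sema7a, a membrane-anchored semaphorin, fell from 156 ± 9.28 to 56.0 ± 7.45 CPM at 24 h (-1.48 ± 0.07), and at 6 h its difference was -0.12 ± 0.07 and did not pass the test, though it did with only the libraries compared (adjusted p = 0.0199).

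By distance between group means, which takes the size of the change into account, the nearest genes were Bmp6 (2.12 log2 units), Igfbp4 (2.15), Kif26b (2.28), Htr4 (2.29), Mpp3 (2.29), Apcdd1 (2.38), Ccdc3 (2.38) and Clca3b (2.39). Igfbp4, which binds insulin-like growth factors, and Kif26b were in both sets. The choice by group means favoured genes with a fall at 24 h and a small change at 6 h, so their values are a description. Igfbp4 was counted at 84.6 ± 5.64 CPM against 99.2 ± 7.82 at 6 h (-0.23 ± 0.10, edgeR adjusted p = 0.163). At 24 h Igfbp4 was counted at 18.7 ± 1.81 CPM against 68.0 ± 5.45 (-1.87 ± 0.11). Without Fz7-21S 24 h replicate 4 its 6 h difference was called (edgeR adjusted p = 0.00527). Kif26b was counted at 7.75 ± 0.599 CPM against 9.12 ± 0.573 at 6 h (-0.24 ± 0.21) and at 1.94 ± 0.555 against 9.61 ± 2.79 at 24 h (-2.31 ± 0.24). Clca3b, of the family of calcium-activated chloride channel regulators, was abundant like Olfm4 and fell from 840 ± 47.6 to 240 ± 20.2 CPM at 24 h, with a difference of 0.17 ± 0.08 at 6 h that did not pass the test but was called without Fz7-21S 24 h replicate 4 (adjusted p = 0.0211). For comparison, the group means of Olfm4 itself spanned 4.51 log2 units.

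A further measure did not use the group levels. Within each group, the deviation of a library from its group mean was correlated between Olfm4 and each of the 10910 genes over the 24 libraries. The highest correlations were those of Ephb3 (r = 0.807), Scn2b (0.788), Lgr5 (0.769), Sema7a (0.768) and Stra6l (0.762), and the lowest were those of Ankrd22 (-0.716), F3 (-0.698) and Acot9 (-0.690). F3 encodes tissue factor. Of 23 stem cell genes, 22 had a positive correlation (median 0.479) and 9 exceeded 0.5, or 39.1% of them, against 1.32% of all genes, whose median was 0.006. The 17 Wnt target genes were all positive (median 0.447). The 20 enterocyte genes leaned the other way, with 2 positive and a median of -0.277, while the medians were 0.132 for Notch components and 0.043 for NF-kB genes.

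These correlations moved with the libraries included. Without dFz7-21 24 h replicate 2 that of Ankrd22 was -0.449. Olfm4 lay farthest from its group mean in dFz7-21 24 h replicates 2 (-0.55 on the log2 scale) and 1 (0.40), and without both the correlation was 0.516 for Ephb3, 0.50 for Lgr5 and -0.302 for Ankrd22. With 1 library left out, the median of the stem cell genes ranged from 0.347 (without dFz7-21 24 h replicate 1) to 0.579 (without Fz7-21S 24 h replicate 4). Without DMSO 24 h replicate 2 and Fz7-21S 24 h replicate 4, the libraries with the fewest genes, the median was 0.543 for stem cell genes and 0.609 for Wnt targets. Outside the dFz7-21 24 h group, over 20 libraries, the correlation was 0.481 for Ephb3, 0.567 for Lgr5 and 0.696 for Stra6l. The median of the stem cell genes there was 0.427, with 21 of 23 positive. It turned negative for Ascl2 (0.479 over the 24 libraries, -0.173 over the 20) and for Igfbp4 (0.258 and -0.046). Spearman's rho over the 24 libraries was 0.578 for Ephb3, 0.567 for Lgr5 and 0.660 for Stra6l. Libraries share depth and handling, and the values are given as a description. For Hes1 the correlation was -0.06, near that of the median gene.

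**Figure D4:**
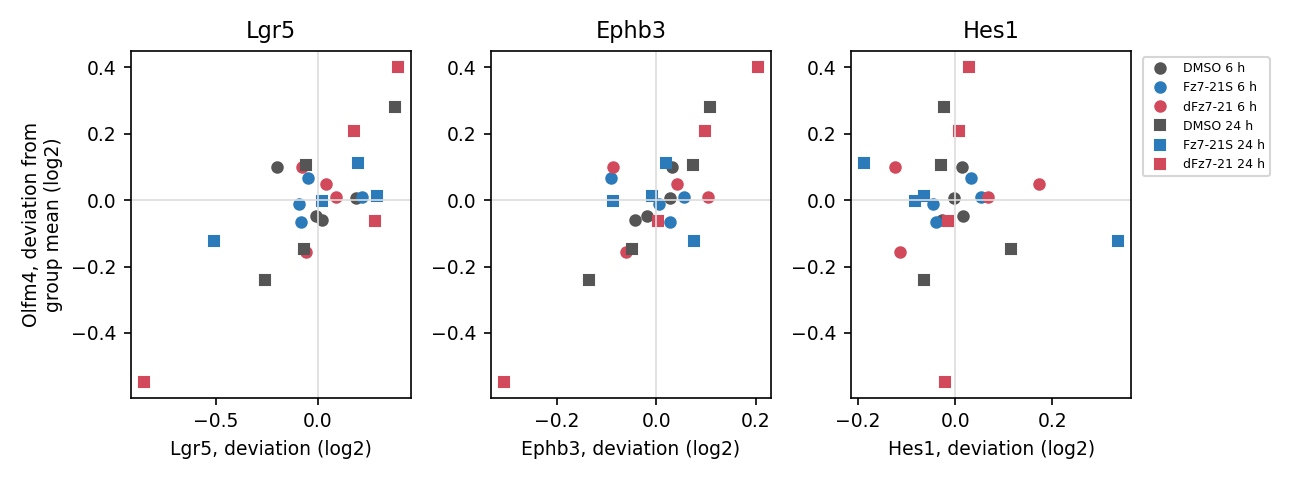
Deviation of Olfm4 from its group mean (log2, vertical) against that of Lgr5, Ephb3 and Hes1 (log2, horizontal) in the 24 libraries; colours give the treatment, circles 6 h and squares 24 h. Correlations over the 24 libraries were 0.769 for Lgr5, 0.807 for Ephb3 and -0.06 for Hes1, and the lowest point is dFz7-21 24 h replicate 2.

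Genes near Olfm4 on chromosome 14 were also compared. Of 31 other RefSeq genes within 1 Mb, 22 are in the files and 12 were tested, all on the side of lower coordinates. At 6 h 2 were called lower and at 24 h 4, with medians of 0.04 and -0.18, where 5.0% and 17.7% of all genes were called lower. The 24 h count was 2 without dFz7-21 24 h replicate 2 or replicate 3. Those that held were Pcdh8 and Rgcc, a regulator of cell cycle kinases 699 kb away. The other calls at 24 h were Naa16 (-0.23) and Kbtbd7 (-0.38). That of Naa16 was lost without any one of DMSO 24 h replicates 1 and 2 and dFz7-21 24 h replicates 1, 2 and 3 (adjusted p from 0.0614 to 0.114). That of Kbtbd7 was lost without any one of DMSO 24 h replicates 3 and 4 and dFz7-21 24 h replicates 2, 3 and 4 (adjusted p from 0.0738 to 0.104).

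Pcdh8 (minus strand, chromosome 14, 79766772 to 79771312) was counted at 4.77, 8.49, 7.05 and 7.11 CPM in DMSO at 6 h and at 0.930, 0.906, 0.996 and 0.715 CPM with dFz7-21. The groups did not overlap, and the change was -2.95 ± 0.29 on the log2 scale (edgeR adjusted p = 3.01e-07). At 24 h it was counted at 23.5, 31.0, 32.0 and 28.6 CPM in DMSO and at 4.29, 1.35, 1.21 and 2.63 CPM with dFz7-21 (-3.62 ± 0.26, adjusted p = 1.64e-10). Unlike Olfm4, it rose with time in DMSO by 2.07 ± 0.23. Rgcc fell from 21.2 ± 2.25 to 6.03 ± 1.62 CPM at 6 h and from 31.2 ± 3.59 to 9.90 ± 2.66 CPM at 24 h (-1.81 and -1.66 on the log2 scale). Between Pcdh8 and Olfm4 lies the long non-coding RNA Gm6999, 16.2 kb from Olfm4, whose mean was 0.0826 CPM in DMSO at 6 h, 0.26 ± 0.242 in DMSO and 0.422 ± 0.0771 in Fz7-21S at 24 h and 0.0556 ± 0.0587 with dFz7-21 at 24 h. With some of these values below the floor, its difference from DMSO at 24 h did not pass the test (edgeR adjusted p = 0.0536), while that from Fz7-21S did (-2.81 ± 0.84, adjusted p = 0.0117). The difference from DMSO was called without any one of DMSO 6 h replicate 1, DMSO 24 h replicate 2, Fz7-21S 24 h replicate 4 and dFz7-21 24 h replicate 4 (adjusted p from 0.0176 to 0.047).

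**Figure D5:**
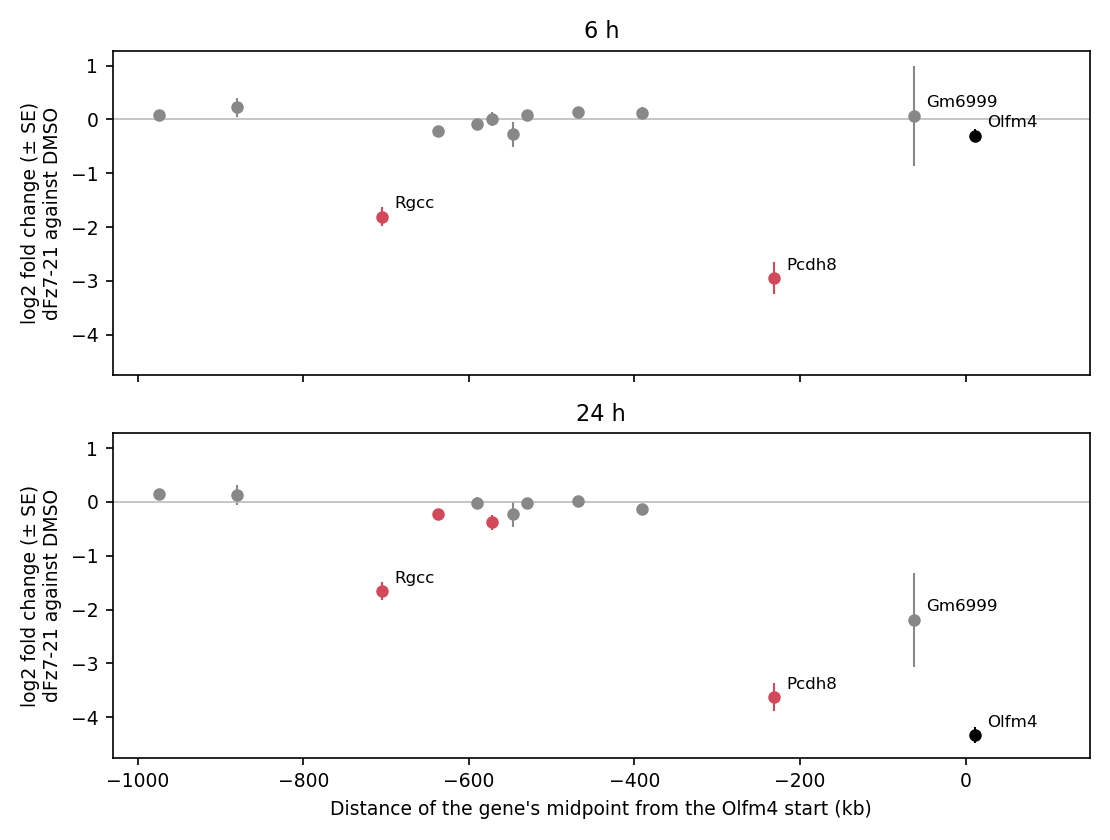
Log2 fold change of dFz7-21 against DMSO (± SE) at 6 h and 24 h for Olfm4 (black) and the 12 tested genes within 1 Mb, by distance of the gene's midpoint from the Olfm4 start in kb; red marks genes called and grey those not called. Pcdh8 and Rgcc are low at both times, and Olfm4 at 24 h.

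Other members of the olfactomedin domain family were expressed at much lower levels. Of 12 listed, 5 were tested. At 24 h Olfm1, a secreted olfactomedin, stood at 1.82 ± 0.527 CPM with dFz7-21 and 3.41 ± 0.958 in DMSO (-0.91 ± 0.20, edgeR adjusted p = 0.0011). The adhesion receptors Adgrl1 and Adgrl2 fell by 0.66 ± 0.13 and 0.78 ± 0.14 on the log2 scale. Olfml2b was called higher, but without dFz7-21 24 h replicate 3, the library richest in mesenchymal transcripts, its adjusted p was 0.954, and its call was also lost without DMSO 24 h replicate 1 (0.0579) or replicate 4 (0.0607). Of 5 reported binding partners of olfactomedin 4, 3 were called higher at 6 h (6.05% of all genes). At 24 h 2 were called higher (18.2% of all genes) and 1 lower (17.7% of all genes). The lysosomal protease gene Ctsc rose by 0.23 ± 0.05 at 6 h and 0.45 ± 0.05 at 24 h, and the innate immune sensor gene Nod1 fell by 1.14 ± 0.17 at 24 h. The other calls were lost in some fits that left out 1 library. With dFz7-21 6 h replicate 1 left out, that of Cdh1 at 6 h (0.23 ± 0.06) had an adjusted p of 0.0559, and the count at 6 h was 1. That of Nod2 at 6 h (0.82 ± 0.23) was lost without any one of DMSO 6 h replicates 3 and 4 and dFz7-21 6 h replicates 1, 2 and 3 (adjusted p from 0.0535 to 0.076). That of Ndufa13 at 24 h (0.35 ± 0.13) was lost without any one of DMSO 24 h replicates 2, 3 and 4 and dFz7-21 24 h replicates 2 and 4 (adjusted p from 0.0525 to 0.0937). Neutrophil and myeloid markers, relevant because neutrophils make olfactomedin 4, summed to 4.04 to 11.7 CPM over 12 genes in all 24 libraries, with the highest values in dFz7-21 24 h, where Olfm4 was lowest. Most of that sum was Itgam, an integrin subunit, while S100a8, Mpo and Elane, which mark neutrophil granules and their precursors, were at or near 0 in every group.

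Markers of the cell types in the organoid moved with Olfm4 at 24 h, and their part in its change was not tested. Over all genes 18.2% were called higher and 17.7% lower at that time. All 20 enterocyte genes were called higher (median 0.66), among them Alpi, a brush border phosphatase, which rose from 53.6 ± 10.4 to 131 ± 4.54 CPM (1.29 ± 0.10), and Krt20 (0.85 ± 0.08). Of 15 Paneth cell genes 13 were called lower (median -0.55), including Lyz1, which fell from 1037 ± 86.7 to 610 ± 44.5 CPM (-0.76 ± 0.06). The goblet cell mucin gene Muc2 rose from 64.5 ± 8.71 to 145 ± 21.8 CPM (1.17 ± 0.10), and 7 of 12 goblet cell genes were called higher. The 2 called lower were those of the transcription factors Foxa3 (-1.14 ± 0.08) and Atoh1 (-0.26 ± 0.10, adjusted p = 0.0391). The count was 1, with the call of Atoh1 lost, without any one of Fz7-21S 6 h replicate 3, dFz7-21 6 h replicates 1, 3 and 4, DMSO 24 h replicates 2, 3 and 4, Fz7-21S 24 h replicates 2 and 3 and dFz7-21 24 h replicates 2, 3 and 4. Of 24 cell cycle genes 18 were called lower (median -0.28), among them the replication helicase genes Mcm6 (-0.58 ± 0.05) and Mcm2 (-0.66 ± 0.06). With 1 library left out, 17 to 20 enterocyte genes were called higher and 11 to 13 Paneth cell genes lower. Likewise 6 to 8 goblet cell genes were called higher and 14 to 20 cell cycle genes lower. Mki67, a general proliferation marker, was counted at 350 ± 25.8 CPM against 397 ± 29.5 in DMSO (-0.18 ± 0.12, edgeR adjusted p = 0.275), and it was called lower without Fz7-21S 24 h replicate 4 (adjusted p = 0.0446). The fall of Olfm4 was thus far larger than that of the cell cycle genes named here.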

How the data were processed

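RNA was isolated with an RNeasy Micro kit, per the labels' protocols, and 24 libraries were sequenced. The authors deposited 2 values per gene: the count of reads aligning uniquely to the gene model, and an RPKM scaled with per-sample size factors, both per the file headers. Per the submitters' processing notes, GSNAP and GRCm38 were used; for their versions, the annotation and the use of strand, nothing was given in the sources used here. RPKM were used as levels only. Groups and replicate numbers came from the sample titles. RefSeq named 31049 Entrez IDs, GENCODE 78, and 5401 stayed unnamed but were kept.

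Counts were fitted with edgeR 4.0.16 in R 4.3.3 (quasi-likelihood, robust, TMM factors, filterByExpr, 1 coefficient per group, all 24 libraries in 1 fit), with Benjamini-Hochberg adjustment over 15429 genes and calls at an adjusted p below 0.05. The fitting code was tested on simulated data. Exact permutation tests of log2 CPM used scipy 1.17.1. Log2 CPM for these tests and for correlations used a prior count of 2. Replicates compared by chi-square gave 2.86 to 96.1 per degree of freedom, so no 2 libraries agreed within sampling noise.

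Olfm4, the gene lists and the tests were chosen with earlier results of these data known. Named genes were listed marker genes, all tested genes within 1 Mb, the 10 best by correlation, 8 by distance, the 5 highest and 3 lowest by deviations, the 5 at each end of the timing order, and up to 3 list members with the smallest p, where not all were printed. Other settings were RLE factors, library totals, no filter, a replicate block, only the libraries compared, DESeq2 1.42.0, leaving out each library, and leaving out the 3 libraries with mesenchymal transcripts. Same-numbered libraries did not deviate together (mean correlation 0.0009 over 60 pairs), so replicate numbers did not pair samples.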

Additional observations from a re-analysis of the deposited data

Results flagged for a closer look

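Within groups of 4, 1 library lay far from the other 3 for 3 genes. This was checked in each of the 6 groups for Olfm4, Lgr5, Smoc2, Ascl2, Pcdh8, Rgcc, Kif26b, Igfbp4, Lfng, Hes1 and Nfkbia. Chance alone marks about 1 group in 20, so over these genes about as many marks would come from chance. Lgr5 stood at 44.3 CPM in Fz7-21S 6 h replicate 2, against 35.7 to 36.8 CPM in the others. Pcdh8 stood at 6.46 CPM in Fz7-21S 6 h replicate 4, against 4.82 to 5.05 CPM. Kif26b stood at 6.85 CPM in dFz7-21 6 h replicate 2, against 7.98 to 8.09 CPM.

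For 5 genes compared with Olfm4, the effect of dFz7-21 differed between 6 h and 24 h by the interaction term of the edgeR fit. Of the other genes checked, Ascl2, Pcdh8, Rgcc, Hes1 and Nfkbia were not called by this term. The share of all genes called by it is not given here. The change of the effect on the log2 scale was -2.61 ± 0.26 for Lgr5 (edgeR adjusted p = 3.94e-07) and -0.91 ± 0.09 for Smoc2 (1.79e-07). For Lfng it was -0.88 ± 0.16 (edgeR adjusted p = 0.00058). Kif26b (-2.07 ± 0.32) and Igfbp4 (-1.64 ± 0.15) were picked for profiles like that of Olfm4. That choice largely fixed a change of this kind, so their values are given without a test. The same value for Olfm4, given without a test, was -4.03 ± 0.19.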

How the results depend on the processing

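The difference of Olfm4 between dFz7-21 and DMSO at 24 h ranged from -4.42 to -4.30 on the log2 scale over 7 settings that changed the normalisation, the filter, the tool or the libraries, and at 6 h from -0.35 to -0.25. The change of the Fz7-21S effect, near 0, turned to -0.0401 without the 3 libraries with mesenchymal transcripts and ranged from -0.0689 to 0.11 when 1 library was left out. With the replicate number as a block, the difference between Fz7-21S and DMSO was -0.11 at 6 h and -0.10 at 24 h, and the block moved no count of called genes by over 1.5 times. Counts of called genes moved more. Between dFz7-21 and DMSO at 6 h, 3640 genes were called with only the libraries compared and 698 without the 3 libraries, against 1705, and 1172 to 3134 with 1 library left out, the highest without Fz7-21S 24 h replicate 4. Between Fz7-21S and DMSO at 6 h the count was 4 with only the libraries compared, 0 without the 3 libraries, 4 with DESeq2 and 0 to 29 with 1 library left out, the highest without dFz7-21 24 h replicate 3. At 24 h it was 0 with only the libraries compared, 118 with DESeq2 and 22 to 1394 with 1 library left out, the lowest without DMSO 24 h replicate 2 and the highest without Fz7-21S 24 h replicate 1. The causes were not tested. The correlations of deviations outside the dFz7-21 24 h group, without the 2 farthest libraries, without the 2 with the fewest genes and by rank were chosen after seeing the data. Calls lost without the 3 libraries included those of Bmp6 (adjusted p = 0.0603) and Mex3a (0.239) at 6 h. Depth did not limit Olfm4, but it limits genes near the floor such as Gm6999.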
